A study of Homo sapiens with 4 samples.

Results

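The nuclear hormone receptors, a family of transcription factors many of which are switched on by a small lipid-soluble ligand, were followed on expression arrays of HEK293 cells. The members were taken from a written list of 46 receptor genes, and all 46 were found on the array through the transcript named in each spot. They were measured by 165 spots of 71998, which formed 55 targets (a target is the set of 3 spots designed on 1 transcript), and they are 46 of 17217 named genes. RNA came from 4 biological replicates of 1 group. These were untreated HEK293 cells, labelled as a normal immortalized line and grown in DMEM with serum and antibiotics. HEK293 is a line of human embryonic kidney origin transformed with adenovirus DNA, and it stands here for a single line under basal culture only. There was no treated group, so each gene could be compared only with a level set as zero expression, not between conditions.

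A nuclear receptor couples a zinc finger domain that binds DNA to a pocket that binds a hormone, vitamin, fatty acid, sterol or foreign compound. Steroid receptors wait on chaperones in the cytoplasm and act mostly as pairs of themselves, while many of the others sit on DNA as partners of a retinoid X receptor (RXR) and exchange corepressors for coactivators when ligand arrives. Orphan receptors are those without an established hormone, and some of them repress or activate without any ligand. In the kidney, receptors for mineralocorticoids, vitamin D and bile acids are known from work on salt, calcium and water handling.

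The measure used throughout is a distance. It is the log2 level of a gene on an array minus the baseline of that array, which is the mean plus 2 SD of 10 seminal protein genes taken as not transcribed in these cells. A detected gene is one with a mean distance over the 4 arrays above 0. The baselines were 9.47, 9.94, 10.69 and 10.32 log2 units on replicates 1 to 4. Of the control genes, AFG2A and SPATA13 had mean levels of 9.97 and 9.72, and the others lay between 6.53 and 7.25. Distances are given for replicates 1 to 4 in that order, then as the mean with the SD over the 4 arrays. Probes differ in affinity, so distances place a gene against the baseline and do not rank the amounts of different transcripts. In RNA from a whole culture, fewer cells with a transcript and less of it per cell cannot be told apart.

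HEK293 cells contained mRNA above the baseline for 24 of the 46 receptors, or 52.2%, beside 52.7% of all named genes. Of the receptors, 18 lay above the baseline on all 4 arrays, where 45.0% of all named genes did so. A one-sided limma test of the distance against 0, with Benjamini-Hochberg adjustment over the 17217 genes, called 17 receptors, where 45.9% of all genes were called. The share detected was close to that of all genes, and the shares on all 4 arrays and called by limma were somewhat lower than those of all genes. Of the 22 receptors not detected, 20 lay below the baseline on all 4 arrays, beside 6855 of the 8143 named genes not detected. A mean distance above 2 was found for 5 receptors, which is 10.9% of them, and for 30.5% of all genes. RXRB was the only receptor above 3, a level that 17.6% of all genes passed, and no receptor passed 4, which 7.12% of all genes did. The median distance was 0.07 for the receptors and 0.26 for all genes, and the median SD was 0.62 and 0.63. No test was made between the receptors and the other genes.

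**Figure D1:**
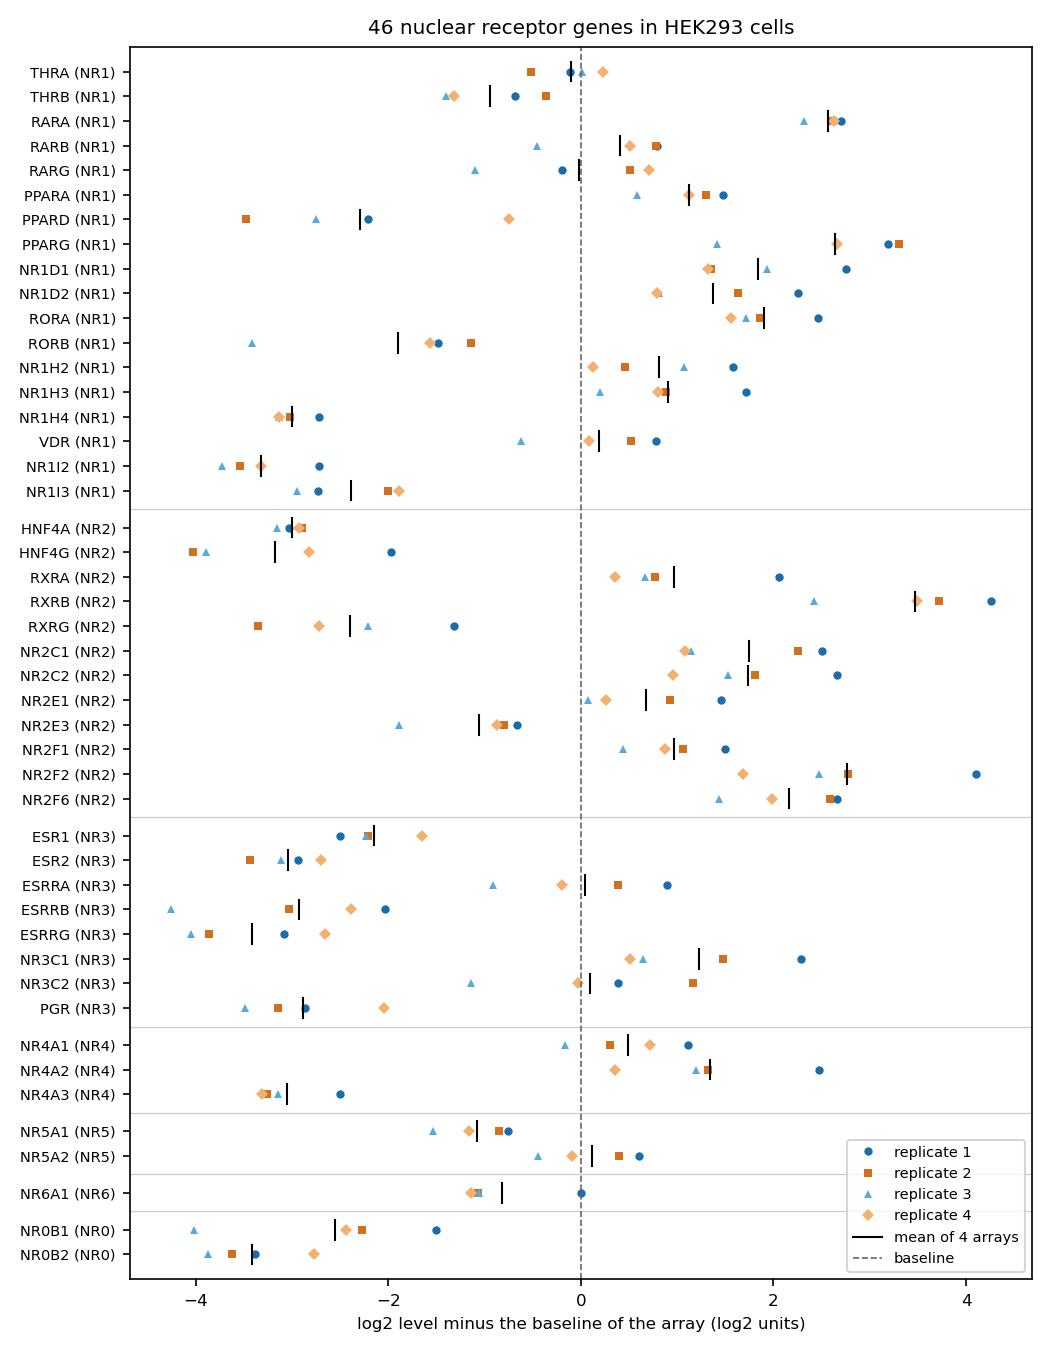
Distance to the baseline of the array (log2 units, horizontal axis) for each of the 46 receptors, grouped by subfamily, with 1 marker per array and a black bar for the mean of the 4 arrays. Marks to the right of the dashed line are above the baseline, where 24 receptors have their mean, and no receptor mean lies beyond 3.47.

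The arrays were not alike. Receptors above the baseline numbered 24, 25, 19 and 23 on replicates 1 to 4, and 58.1%, 54.2%, 47.4% and 50.2% of all genes were above it. Replicate 3, with the highest baseline, had the fewest in both cases. Sorted probe values were within 0.01 log2 units at 99.97% of ranks for replicates 1 and 2 and at 99.99% for replicates 3 and 4, but at 1.23% to 1.25% across those pairs. Replicates 1 and 3 also stood apart from 2 and 4 in some genes, and the neurofilament gene NEFM lay at 4.10, -1.62, 2.40 and -2.24. Before the baseline was subtracted, 9 receptors had both levels of replicates 2 and 4 above those of 1 and 3, and another 9 had both below. Those shares were 19.6% each, beside 18.5% and 22.2% of all named genes. With replicates 1 and 3 alone 22 receptors were detected (47.8%, beside 53.6% of all genes), and with replicates 2 and 4 alone 25 (54.3%, beside 52.4%). Of 10 kidney markers only WT1 was detected (0.81 ± 1.03), and 6 of 8 neuronal markers were, with NEFL at 4.01 ± 0.56. WT1 had 1 of 3 spots above the baseline and lay at -0.64 on replicate 3. Limma called WT1 (adjusted p = 0.0232) and 5 neuronal markers, and NEFM was detected but not called (adjusted p = 0.0644, limma). None of 6 liver and none of 6 blood and endothelial markers was detected. Over all named genes 52.7% were detected and 45.9% were called by limma.

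The receptors for hormones and vitamins were detected in 5 of 11 cases (45.5%, beside 52.7% of all named genes). Of these 2, RARA and NR3C1, were above the baseline on all 4 arrays and called by limma. Over all genes those shares were 45.0% and 45.9%. RARA, the alpha receptor for retinoic acid, lay at 2.70, 2.62, 2.31 and 2.62, which gave 2.56 ± 0.17 (adjusted p = 6.5e-13, limma). Its SD was the lowest of the detected receptors. The other retinoic acid receptors were near the baseline. RARB lay at 0.79, 0.78, -0.46 and 0.51 (0.41 ± 0.59, adjusted p = 0.252, limma), above it on all arrays but replicate 3. RARG lay at -0.20, 0.51, -1.11 and 0.71 (-0.02 ± 0.82), so that replicates 2 and 4 were above the baseline and 1 and 3 below it.

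The thyroid hormone receptors were not detected by the rule. THRB, at -0.69, -0.36, -1.40 and -1.32 (-0.94 ± 0.50), was below the baseline on every array. THRA lay at -0.12, -0.52, 0.01 and 0.23 (-0.10 ± 0.31), and this mean hides a split between its targets. The first target lay at 1.46, 0.74, 0.96 and 0.60 (0.94 ± 0.38), above the baseline on all 4 arrays. The second lay at -1.70, -1.78, -0.94 and -0.14 (-1.14 ± 0.77), below it on all 4. Taking the highest target of a gene in place of the mean put THRA at 0.91 (adjusted p = 0.013, limma). That value rests on 1 of the 2 transcripts targeted. Which form of the receptor each transcript encodes, and whether that form binds hormone, was not examined. THRA and NR1D1 lie on opposite strands of chromosome 17 and overlap by 1075 bases in the GRCh38.p14 gene table. The random primers used to label double-stranded cDNA keep no strand, so signal from the overlap cannot be told apart between them. The same limit applies to other receptors that overlap a gene on the array in that table. Among those detected these were NR2C2 (7023 bases shared with MRPS25), NR1D2 (1277 with NKIRAS1), NR1H3 (515 with ACP2), ESRRA (284 with TRMT112) and RARB (28 with TOP2B), and whether their spots lie in the overlap was not tested.

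VDR, the vitamin D receptor, was close to the baseline at 0.78, 0.51, -0.62 and 0.08 (0.19 ± 0.61, adjusted p = 0.581, limma). Its arrays fell on both sides of 0.

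Among the steroid receptors, the glucocorticoid receptor NR3C1 was detected and the estrogen and progesterone receptors were not. NR3C1 lay at 2.29, 1.48, 0.64 and 0.51, which gave 1.23 ± 0.83 (adjusted p = 5.8e-04, limma). All 4 arrays were above the baseline, with replicate 1 the highest. The mineralocorticoid receptor NR3C2, which binds aldosterone and cortisol, lay at 0.38, 1.16, -1.15 and -0.03. Its mean of 0.09 ± 0.96 passed the rule by less than the standard error of 0.351, and its adjusted p was 0.765 by limma. ESR1, at -2.50, -2.21, -2.24 and -1.65 (-2.15 ± 0.36), and ESR2 (-3.05 ± 0.31) were below the baseline on all arrays. The progesterone receptor PGR, itself a well known estrogen-induced gene, was likewise below on all 4 at -2.89 ± 0.62.

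The lipid and xenobiotic sensors were detected in 6 of 11 cases (54.5%, beside 52.7% of all named genes). All 6 were above the baseline on every array and called by limma, where the shares over all genes were 45.0% and 45.9%. The RXR genes encode the shared partners of many receptors. RXRB lay at 4.26, 3.72, 2.42 and 3.49 and had the highest mean of the 46 receptors, 3.47 ± 0.77 (adjusted p = 2.1e-22, limma). Each of its 3 spots was above the baseline. RXRA lay at 2.05, 0.77, 0.67 and 0.36 (0.96 ± 0.75, adjusted p = 0.00722, limma), and its distance was largest on replicate 1. In log2 level, before the baseline was subtracted, RXRA was at 11.52 and 11.36 on replicates 1 and 3. On replicates 2 and 4 it was at 10.71 and 10.68. RXRG lay at -1.32, -3.36, -2.22 and -2.72 (-2.40 ± 0.86) and was not detected.

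Of the peroxisome proliferator-activated receptors, which bind fatty acids and their derivatives, PPARG and PPARA were detected and PPARD was not. PPARG, a regulator of fat cell formation, lay at 3.19, 3.30, 1.41 and 2.66 (2.64 ± 0.87, adjusted p = 1.3e-13, limma). Its 2 targets gave 2.64 ± 0.89 and 2.64 ± 0.85, and all 6 spots were above the baseline. The position numbers in the spot names of these targets differed by 119 in each of 3 pairs, and the paired spots differed by a median of 0.28 log2 units, so the targets may share sequence and do not count as separate evidence. PPARA, which drives fatty acid oxidation genes, lay at 1.48, 1.30, 0.59 and 1.12 (1.12 ± 0.39, adjusted p = 0.00172, limma), with 3 of 3 spots above. PPARD lay at -2.21, -3.48, -2.76 and -0.75 (-2.30 ± 1.16), below the baseline on all arrays but with a range of over 2 log2 units.

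Both liver X receptors, the sensors of oxidised cholesterol, were detected at a modest distance. NR1H2 lay at 1.58, 0.45, 1.07 and 0.12 (0.81 ± 0.65, adjusted p = 0.024, limma). NR1H3 lay at 1.71, 0.88, 0.20 and 0.80 (0.90 ± 0.62, adjusted p = 0.0119, limma). On replicate 1 both had their largest distance, and without it neither was called (0.55, adjusted p = 0.12, and 0.63, adjusted p = 0.0741, limma). In log2 level, before the baseline was subtracted, NR1H2 was highest on replicate 3, at 11.76 against 11.05 on replicate 1. NR1H2 also lost its call without replicate 3 (0.72, adjusted p = 0.0591, limma) and with the pairs 1 and 2 and 3 and 4 as a random block (adjusted p = 0.0681, limma), and NR1H3 with the median of probes (0.72, adjusted p = 0.0914, limma). Without replicate 1 the call was lost too for RXRA (0.60, adjusted p = 0.0873, limma). The bile acid receptor NR1H4 lay at -2.72, -3.02, -3.13 and -3.13 (-3.00 ± 0.19). The foreign compound sensors NR1I2 (-3.33 ± 0.44) and NR1I3 (-2.39 ± 0.53) were also below the baseline on every array, and none of the spots of these 3 receptors was above it.

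Among the orphan receptors, 13 of 24 were detected (54.2%, beside 52.7% of all named genes). Of these, 10 were above the baseline on all 4 arrays, beside 45.0% of all genes. Limma called 9 of them, beside 45.9% of all genes. The COUP transcription factors, orphan repressors and activators of development, were all detected. NR2F2 lay at 4.10, 2.78, 2.48 and 1.69 (2.76 ± 1.01, adjusted p = 9.7e-15, limma), second to RXRB in mean distance and with every spot above the baseline. NR2F6 lay at 2.66, 2.59, 1.44 and 1.98 (2.17 ± 0.57, adjusted p = 1.3e-09, limma), also with every spot above. NR2F1 lay at 1.50, 1.06, 0.43 and 0.87 (0.97 ± 0.44, adjusted p = 0.00697, limma).

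The testicular receptors, orphans that bind the repeats used by RXR partners, were both detected, as were both REV-ERB repressors of the circadian clock. NR2C1 lay at 2.50, 2.25, 1.14 and 1.08 (1.74 ± 0.74, adjusted p = 1e-06, limma). NR2C2 lay at 2.66, 1.80, 1.52 and 0.95 (1.73 ± 0.71, adjusted p = 1.2e-06, limma). For both genes all arrays were above the baseline. NR1D1 (REV-ERB alpha) lay at 2.75, 1.35, 1.94 and 1.32 (1.84 ± 0.67, adjusted p = 2.6e-07, limma). NR1D2 (REV-ERB beta) lay at 2.25, 1.63, 0.81 and 0.79 (1.37 ± 0.70, adjusted p = 1.2e-04, limma). RORA, the activator that competes with the REV-ERBs for the same DNA elements, lay at 2.46, 1.86, 1.72 and 1.56 (1.90 ± 0.39, adjusted p = 1e-07, limma). These clock receptors were above the baseline on all 4 arrays, while RORB (-1.91 ± 1.02) was below it on all 4.

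The NR4A receptors are immediate early genes that respond to many stimuli, and they divided. NR4A2 lay at 2.48, 1.32, 1.20 and 0.36 (1.34 ± 0.87, adjusted p = 1.8e-04, limma). NR4A1 lay at 1.11, 0.30, -0.16 and 0.72 (0.49 ± 0.55, adjusted p = 0.169, limma). NR4A3 lay at -2.50, -3.26, -3.15 and -3.31 (-3.05 ± 0.37) over 2 targets, all 6 spots of which were below the baseline.

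NR2E1, the tailless homologue of neural stem cells, was above the baseline on all arrays at 1.45, 0.93, 0.07 and 0.26 but missed the threshold (0.68 ± 0.64, adjusted p = 0.0589, limma). Without replicate 3 the mean was 0.88 (adjusted p = 0.0214, limma), and with the mean of log2 probe values it was 0.79 (adjusted p = 0.0335, limma). NR2E3, a photoreceptor factor, was not detected (-1.06 ± 0.56), and its targets disagreed. Its first target lay at 1.12, 0.98, -0.03 and 0.03 (0.53 ± 0.61) and its second at -2.46, -2.58, -3.75 and -1.77 (-2.64 ± 0.82).

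ESRRA, a regulator of mitochondrial genes, and NR5A2, known from liver and pancreas, sat on the baseline. ESRRA lay at 0.89, 0.39, -0.91 and -0.19 (0.04 ± 0.77, adjusted p = 0.861, limma). NR5A2 lay at 0.61, 0.40, -0.45 and -0.10 (0.11 ± 0.48, adjusted p = 0.722, limma). In both genes replicates 1 and 2 were above the baseline and replicates 3 and 4 below it. The steroidogenic factor NR5A1 (-1.08 ± 0.35) and the germ cell factor NR6A1 (-0.82 ± 0.54) were below the baseline on all 4 arrays by about 1 log2 unit. Farther below were the liver-enriched factors HNF4A (-3.01 ± 0.11, with 0 of 12 spots above) and HNF4G (-3.18 ± 0.97). ESRRB (-2.93 ± 0.98) and ESRRG (-3.42 ± 0.66) lay in the same range. The NR0 receptors, which lack the usual DNA-binding domain and act as repressors of other receptors, were at -2.56 ± 1.05 for NR0B1 and -3.42 ± 0.47 for NR0B2. None of these 8 receptors other than NR6A1 had a spot above the baseline.

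By subfamily, NR1 had 10 of 18 receptors detected (55.6%), NR2 had 8 of 12 (66.7%) and NR3 had 3 of 8 (37.5%). Over all named genes the share was 52.7%, and no test was made between subfamilies. NR4 had 2 of 3, NR5 had 1 of 2, and neither NR6A1 nor the 2 NR0 receptors were detected. On all 4 arrays the counts were 8 in NR1, 8 in NR2, 1 in NR3 and 1 in NR4, beside 45.0% of all named genes. Every NR2 receptor that was detected was therefore above the baseline on each array, and of the detected NR3 receptors NR3C1 alone was.

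The genomic sequence in front of 4 orphan or sensor genes is given because they pair detected and undetected receptors with CpG-rich and CpG-poor starts. RefSeq windows of GRCh38.p14 were matched for 41 receptors, and 17 had a single listed start. The 250 bases before that start are printed along the strand of the gene, with CG pairs in capitals. NR2C2 (detected, chr3:14947333-14947582, plus strand) has 39 CG pairs and NR4A3 (not detected, chr9:99821635-99821884, plus strand) has 33. RORA (detected, chr15:60627531-60627780, minus strand) has 1 and NR1H4 (not detected, chr12:100503110-100503359, plus strand) has 2.
NR2C2: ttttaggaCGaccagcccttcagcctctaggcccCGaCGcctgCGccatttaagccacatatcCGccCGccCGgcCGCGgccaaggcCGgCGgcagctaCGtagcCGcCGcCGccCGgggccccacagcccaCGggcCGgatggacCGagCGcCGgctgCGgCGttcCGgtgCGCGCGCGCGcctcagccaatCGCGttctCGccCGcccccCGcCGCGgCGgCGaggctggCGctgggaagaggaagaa
NR4A3: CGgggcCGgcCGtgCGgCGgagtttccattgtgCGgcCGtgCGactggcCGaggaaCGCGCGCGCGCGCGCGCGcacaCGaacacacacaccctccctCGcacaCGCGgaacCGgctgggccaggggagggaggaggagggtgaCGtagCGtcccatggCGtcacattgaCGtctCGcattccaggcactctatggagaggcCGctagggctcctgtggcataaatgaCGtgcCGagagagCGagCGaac
RORA: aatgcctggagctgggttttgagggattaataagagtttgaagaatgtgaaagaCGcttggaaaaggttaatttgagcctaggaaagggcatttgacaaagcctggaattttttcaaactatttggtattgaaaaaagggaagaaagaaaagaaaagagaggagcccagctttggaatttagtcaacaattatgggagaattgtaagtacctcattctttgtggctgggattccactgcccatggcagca
NR1H4: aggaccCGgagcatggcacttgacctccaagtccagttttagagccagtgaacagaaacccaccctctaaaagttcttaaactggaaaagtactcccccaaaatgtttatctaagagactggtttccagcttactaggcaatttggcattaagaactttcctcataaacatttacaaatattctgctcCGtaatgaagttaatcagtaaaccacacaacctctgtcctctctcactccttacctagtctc
The listed start need not be that of the transcript the array measures. Across the receptors with 1 listed start, the median was 18.5 CG pairs in the 6 detected and 16 in the 11 not detected. Over all named genes with 1 listed start it was 22 in the 5320 detected and 8 in the 4752 not detected. The receptor half-site AGGTCA, searched on both strands, was found in 3 of the 17 receptor windows (NR1H4, RXRG and NR0B1), or 17.6%, and in 10.0% of the 10072 windows of all genes. A match is a run of letters and not a bound site.

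The spots of a receptor often disagreed. Of the 24 detected receptors, 6 had every spot above the baseline, or 25%, against 64.8% of the 9074 detected genes on the array. These were PPARA, PPARG, RXRB, NR2C2, NR2F2 and NR2F6. At least 1 spot was below the baseline in the other 18, and 5 rested on a single spot. These 5 were RARB, VDR, ESRRA, NR3C2 and NR4A1, none of which was called by limma. Fewer receptors than other genes lay far above the baseline, with 10.9% of receptors and 30.5% of all genes above a mean distance of 2. Spots were not compared at equal distance, so the 25% and 64.8% do not measure disagreement alone. In RARA the first and second spots averaged 2.50 and 3.56, and the third lay at -2.02, -1.24, -3.34 and -1.40. NR4A2 had the same form, with its last spot at -2.40, -3.27, -3.32 and -2.70. In NR3C1 the third spot lay at -0.93, -3.31, -2.49 and -2.81. NR3C2 was carried by its second spot, at 1.71, 2.58, 0.16 and 1.34, while its first averaged -3.79. A target was summarised as the log2 of the mean of its linear spot values, which follows the brightest spot. With the mean of the log2 values instead, NR3C1 (0.69, adjusted p = 0.0648) and NR4A2 (0.59, adjusted p = 0.11) were no longer called by limma, and NR2E1 was. Of the 22 receptors not detected, 18 had no spot above the baseline, and the other 4 were THRA, RARG, NR2E3 and NR6A1. Among all 17217 named genes, 6954 had no spot above it.

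**Figure D2:**
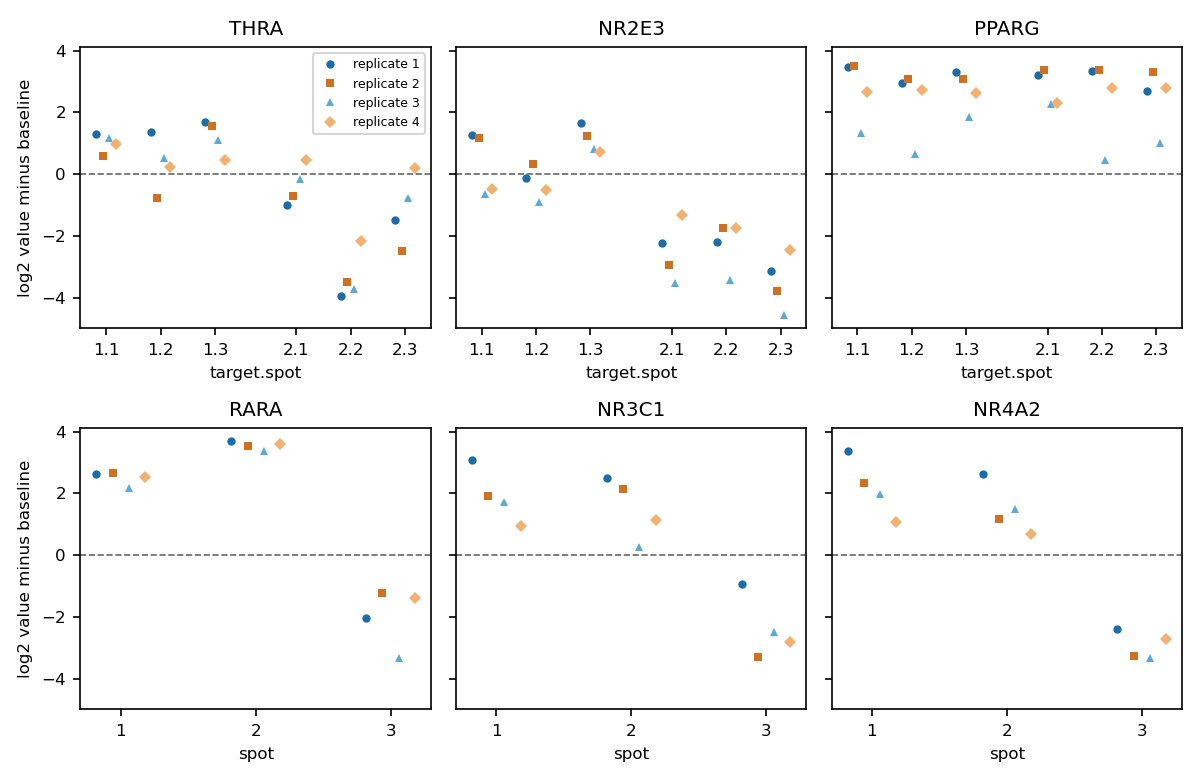
Distance to the baseline (log2 units, vertical axis) of each spot of 6 receptors, with 1 marker per array. THRA and NR2E3 have a first target mostly above the dashed baseline and a second mostly below it, PPARG has all 6 spots above, and RARA, NR3C1 and NR4A2 each have 2 spots above and the last below on every array.

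The cofactors through which the receptors act were detected in nearly all cases, beside 52.7% of all named genes. Over all genes limma called 45.9%. Coactivators, which open chromatin or reach the polymerase, were detected for 18 of 19 genes, with a median distance of 1.85 beside 0.26 for all genes. The highest were the arginine methyltransferase PRMT1 (5.24 ± 0.73), the chromatin remodeller SMARCA4 (5.11 ± 0.62), MED24 (4.50 ± 0.47) and CARM1 (4.03 ± 0.41). SRA1 alone was not detected (-1.59 ± 0.57). Of the 18, limma called 14, and the p160 coactivator NCOA3 (0.09 ± 1.03) and the PPARG coactivator PPARGC1A (0.05 ± 0.48), which were named after their values were seen, were among those not called. Corepressors were detected for 12 of 13 genes with a median of 3.79, led by the deacetylases HDAC3 (5.12 ± 0.62), HDAC2 (4.94 ± 0.69) and HDAC1 (4.63 ± 0.60) and by their scaffold SIN3A (4.53 ± 0.65). The exception was HR (-0.51 ± 0.82). The chaperones that hold steroid receptors ready for ligand were detected for 11 of 12 genes with a median of 4.58. STIP1 (5.64 ± 0.51), HSP90AB1 (5.25 ± 1.21), PTGES3 (5.14 ± 0.83) and FKBP4 (4.81 ± 0.60) were the highest, and BAG1 (-0.66 ± 0.79) was not detected.

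Genes that handle ligands were counted by ligand, with no test between the lists. The shares over all named genes were 52.7% detected and 45.9% called by limma. Retinoid handling genes were detected in 10 of 15 cases with a median of 1.30, and limma called 9. They included the binding proteins FABP5 (4.07 ± 1.06) and CRABP2 (3.77 ± 0.80), the retinoic acid synthesising enzyme ALDH1A2 (3.48 ± 0.64) and the retinal reductase RDH11 (3.34 ± 0.76). Of the enzymes that break retinoic acid down, chosen after their values were seen, CYP26B1 was at 1.94 ± 0.55 and CYP26A1 at -2.76 ± 0.72. Thyroid hormone handling genes were detected in 2 of 7 cases, among them the transporter SLC16A10 (3.10 ± 0.86). The 3 deiodinases, also chosen after their values were seen, lay between -3.19 and -2.76. Enzymes of steroid and sterol ligands were detected in 2 of 16 cases, HSD11B2 (0.33 ± 0.18, adjusted p = 0.345, limma) and CYP2R1 (0.00 ± 0.79), and limma called none. That count was 1 without replicate 1 or without replicate 3, and it ran from 0 with 3 SD to 9 with olfactory controls or without AFG2A and SPATA13. Of all genes 39.1% were detected with 3 SD, 71.4% with olfactory controls and 74.0% without AFG2A and SPATA13. HSD11B2, which inactivates cortisol and so keeps it from the mineralocorticoid receptor, was above the baseline on all 4 arrays at 0.52, 0.28, 0.12 and 0.42.

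Genes known as targets of the receptors were detected in 13 of 33 cases (39.4%, beside 52.7% of all named genes). Their median was -1.64, and limma called 10, beside 45.9% of all genes. With 3 SD the count detected was 6, beside 39.1% of all genes. The glucocorticoid-responsive genes TSC22D3 (3.91 ± 0.95) and DUSP1 (3.06 ± 0.74) and the liver X receptor target MYLIP (2.23 ± 0.69) were among the highest. Several targets of detected receptors were far below the baseline, and those named here were chosen after their values were seen. They were the cholesterol exporter genes ABCA1 (-3.77 ± 0.29) and ABCG1 (-2.41 ± 0.47), targets of the liver X receptors, and the fat cell gene FABP4 (-2.96 ± 0.54), a target of PPARG. With no ligand added and no receptor perturbed, these levels say nothing of which receptor acts on a gene. Over the 7 lists together 68 of 115 genes were detected, or 59.1%, beside 52.7% of all named genes.

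**Figure D3:**
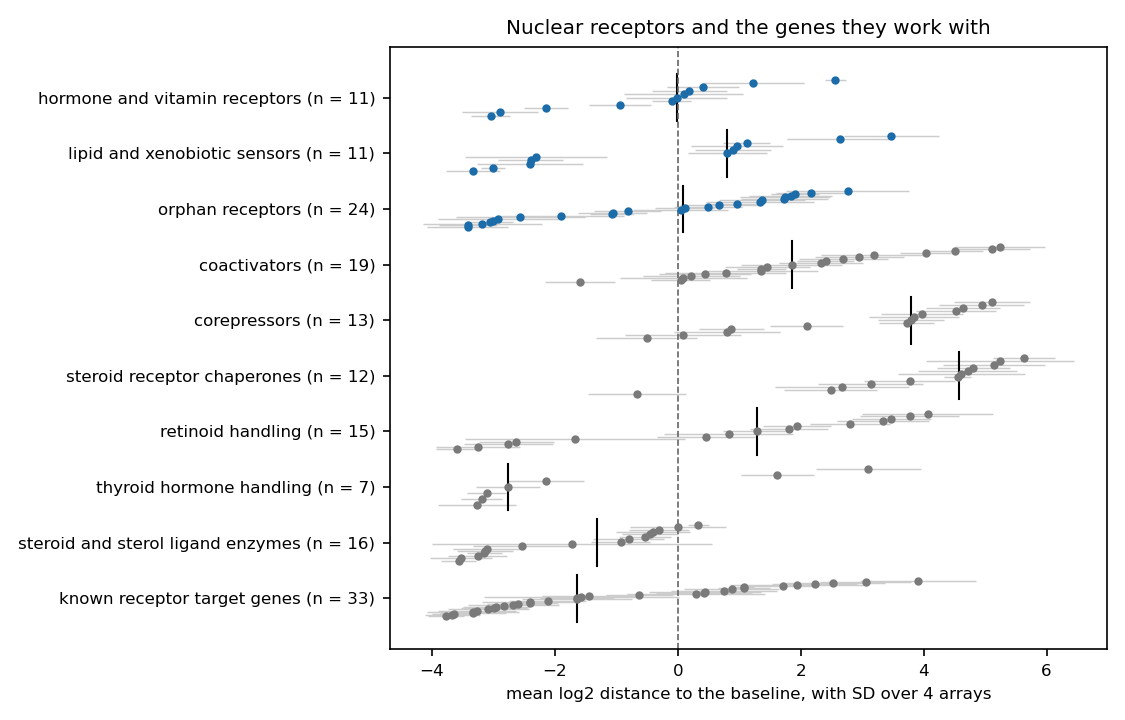
Mean distance to the baseline (log2 units, horizontal axis) of each gene with its SD over the 4 arrays, for 3 classes of receptor in blue and 7 lists of genes that work with them in grey, with a black bar at the median of each group. Corepressors and steroid receptor chaperones have medians of 3.79 and 4.58, and thyroid hormone handling, steroid enzyme and target genes have medians below 0.

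The number of receptors detected moved with the baseline more than with the arrays. It was 30 with the mean plus 1 SD of the seminal genes and 11 with the mean plus 3 SD, where 64.3% and 39.1% of all genes were detected. With olfactory receptor genes as controls it was 31 (71.4% of all genes). Leaving out AFG2A and SPATA13, the control genes nearest to the baseline at -0.13 and -0.38, gave 33 (74.0% of all genes). The other control genes lay between -3.58 and -2.85. Without AFG2A and SPATA13 the mean baseline fell from 10.10 to 7.78 log2 units, so it depends strongly on them. THRA, THRB, RARG, NR2E3, NR5A1 and NR6A1, not detected as reported, were then called by limma (adjusted p from 4.6e-10 to 2.5e-05). With olfactory controls limma called them too. Under every setting run, 11 receptors stayed above the baseline, namely RARA, PPARG, NR1D1, NR1D2, RORA, RXRB, NR2C1, NR2C2, NR2F2, NR2F6 and NR4A2. Under the same settings 13 of the 22 undetected receptors stayed below it. The shares of all named genes that stayed above or below under every setting were not counted. As many receptors, 11 (23.9%), were detected with 3 SD alone, where 39.1% of all genes were.

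**Figure D4:**
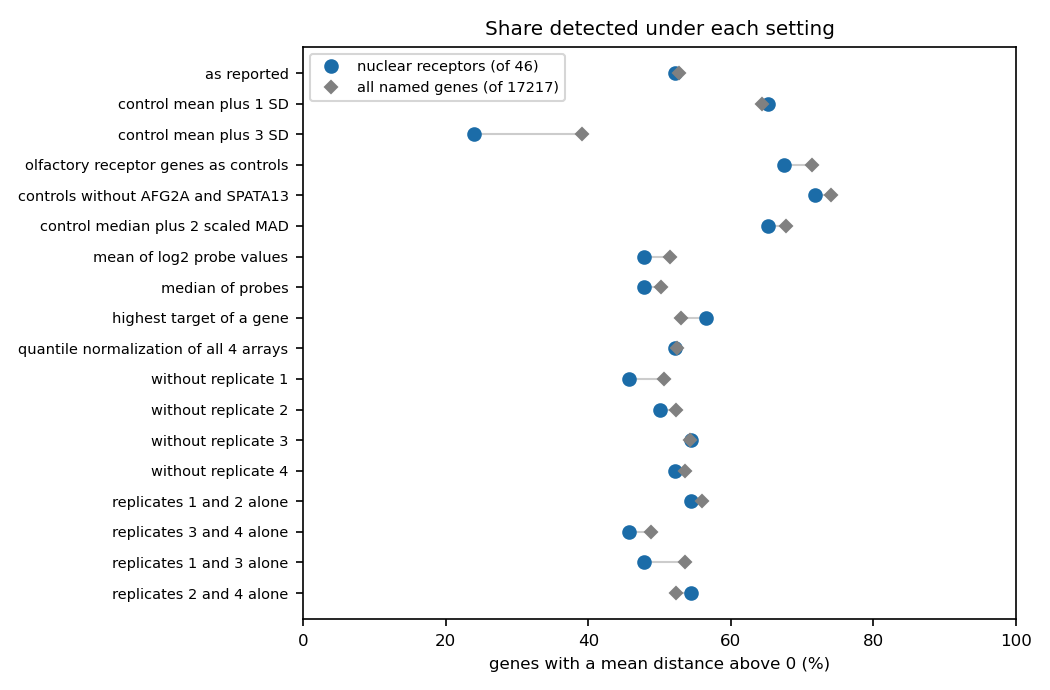
Share of the 46 receptors (blue circles) and of all 17217 named genes (grey diamonds) with a mean distance above 0, in percent, as reported and under each other setting. Both shares follow the baseline, with 23.9% of receptors detected at 3 SD and 71.7% without the 2 control genes, and they lie farthest apart at 3 SD.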

How the data were processed

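RNA of 4 untreated HEK293 cultures was copied from an oligo(dT) primer, labelled with Cy3 alone and put on NimbleGen arrays of 60-base probes. The values the authors deposited are log2, 1 for each probe on each array. RMA is named in the submitters' processing notes, and the values have the form of quantile normalization within replicates 1 and 2 and within replicates 3 and 4. Scanner intensities were not used here, and neither background nor saturation was examined.

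Transcripts named in the spots were matched without versions to a RefSeq table (GRCh38.p14). A target was log2 of the mean of its linear probe values, and a gene was the mean of its targets. The detection rule was the study's, with 10 of its 11 control genes matched (PYY2 was not). Distances of all 17217 genes were fitted with limma 3.58 in R 4.3 (1 group, one-sided, Benjamini-Hochberg adjustment, threshold 0.05) and tested on simulated data. Prior degrees of freedom were infinite, so every gene had the standard error 0.351. All genes of an array share its baseline, so these tests are not independent, and the error of the baseline within an array does not enter. With 4 arrays the smallest exact one-sided sign-flip p is 0.0625. The number of arrays limits the precision.

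The members and the gene lists were chosen with earlier results of these data known. All receptors could be named. In the other lists the rule allowed up to 4 genes with the largest distance that passed the baseline on each array, and the detected or undetected genes of a list where these were 4 or fewer. Some genes that this rule allowed are not reported here. A description of receptor proteins was planned and not made. The alternatives were other control levels and control genes, probe and target summaries, normalization, arrays left out, and limma with a trend, a block or a filter on dim genes.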

Additional observations from a re-analysis of the deposited data

Results flagged for a closer look

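For 47 values over the 4 arrays (the 46 receptors and the baseline) the gap between the most distant array and its neighbour was compared with the whole range. The ratio passed Dixon's 95% critical value in 2 of them, and chance passes it about 1 time in 20. NR2E3 had a ratio of 0.837, because replicate 3 lay at -1.89 and the other arrays between -0.87 and -0.67. NR6A1 had a ratio of 0.926, because replicate 1 lay at -0.00 and the others between -1.14 and -1.06. In log2 levels, before the baseline was subtracted, the ratios were 0.485 and 0.408, below the critical value.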

How the results depend on the processing

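With the control mean plus 3 SD, 11 receptors were detected (beside 39.1% of all genes), 6 on all 4 arrays, and limma called 5. With plus 1 SD limma called 26. With olfactory controls, without AFG2A and SPATA13, and with the control median plus 2 scaled median absolute deviations, 30 receptors were above the baseline on all arrays and 30 called. Without any one replicate, 21 to 25 were detected (beside 50.6% to 54.3% of all genes), 18 to 21 were on all remaining arrays and 14 to 17 called. Shares of all genes on all arrays or called by limma were not counted under these alternatives. Those receptor counts therefore have no background beside them. Of the alternative values of single receptors, 30 fell from above the baseline to 0 or below, and 14 stayed above it but lost the call. Another 67 rose from 0 or below to above 0 or gained the call, and 799 did none of these. With 2 arrays alone limma was not run, so those values were compared by sign only. With 3 SD the median distance was -1.25, and the distances were RARB -0.91, PPARA -0.20, NR1H2 -0.51, NR1H3 -0.42, VDR -1.13, RXRA -0.36, NR2E1 -0.64, NR2F1 -0.35, ESRRA -1.27, NR3C1 -0.088, NR3C2 -1.23, NR4A1 -0.83 and NR5A2 -1.20. With the mean of log2 probe values they were -0.049 for the median, ESRRA -0.50 and NR3C2 -0.90. With the median of probes they were -0.13 for the median, RARB -0.17, ESRRA -1.15 and NR3C2 -1.22. With replicates 3 and 4 alone the median was -0.27, VDR -0.27, ESRRA -0.55, NR3C2 -0.59 and NR5A2 -0.27, and with replicates 1 and 3 alone the median was -0.033, ESRRA -0.0098 and NR3C2 -0.38. Without each replicate in turn the median distance ran from -0.029 to 0.35, VDR from -0.0076 to 0.46, ESRRA from -0.24 to 0.36, NR3C2 from -0.26 to 0.50 and NR5A2 from -0.050 to 0.30. Another control level moves all distances of an array together by construction, and the cause of the other changes was not tested. The pairs 1 and 2 and 3 and 4 as a random block left NR1H2 uncalled (adjusted p = 0.0681, limma). No paired analysis was possible because there was 1 group. Receptors within 1 standard error of the baseline, 6 in number, are not separated from it by 4 arrays. Of the 115 genes in the companion lists 48 to 86 were detected under the alternatives, against 68 as reported. Over all named genes the share ran from 39.1% to 74.0%.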
